A study of Drosophila melanogaster with 4 samples.

Results

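The nuclear genes for the proteins of the mitochondrial ribosome were followed in early pupae in which the dopamine receptor Dop1R2 was knocked down. The members were taken by name alone, as all probe sets whose single gene symbol begins with mRpL (large subunit) or mRpS (small subunit). This gave 66 probe sets for 64 genes, 43 of the large and 21 of the small subunit, among 10843 genes that have a probe set of their own on the array. A gene with 2 probe sets was represented by the brighter one. The reference gene table lists 73 genes with such names, and mRpS10 was left out because its probe set is shared with CG34316.

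Mitochondria keep a small genome whose messages encode core subunits of the respiratory chain and ATP synthase. These messages are translated inside the organelle by a ribosome of its own, which descends from a bacterial ribosome. Its RNAs come from mitochondrial DNA, whereas its proteins are encoded in the nucleus, made in the cytosol and imported, so each organelle ribosome depends on both genomes. The fly gene technical knockout (tko), a classical mutant sensitive to mechanical shock, encodes a small subunit protein of this ribosome, as does bonsai. Tissues with a high demand for respiration, such as flight muscle, are rich in mitochondria.

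Affymetrix Drosophila genome arrays were hybridized with RNA from whole pale pupae raised at 29 °C, pooled 10 to 20 per array. The Dop1R2 RNAi pupae (UAS-dsDop1R2/+;Act5C-Gal4/+) carried a hairpin against Dop1R2 and an Act5C-Gal4 driver, which turns it on in all tissues, and 2 biological replicates were measured. The 2 control replicates (w1118;Act5C-Gal4/+) carried the driver without the hairpin, so both groups had Gal4. A figure legend of the study instead describes controls with the hairpin over a balancer chromosome, and the labels were followed here. Which of the study's hairpin lines was used for the arrays could not be taken from the labels or methods, and the sex of the pupae is not stated. The knocked-down gene itself was not analysed here, for want of a probe set annotated to it singly.

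Each value is a MAS5 signal, an intensity on a linear scale that the authors obtained by summarizing the probes of a probe set on 1 array. The median signal lay between 43.4 and 45.002 on the 4 arrays. The 3′ to 5′ ratio of actin, a measure of RNA integrity, was 2.07 for replicate 1 of each group and 1.61 for replicate 2 of each. The same ratio for eIF-4a was 3.98 and 2.82 in the knockdown, lowest in replicate 2, and 4.59 and 4.24 in the controls, and for GAPDH it was 3.88 and 3.90 against 4.61 and 3.97. The part of RNA quality in the results was not tested. Signals were compared as log2 values with limma over the 8749 of 13966 probe sets that passed a filter on dim signals, with Benjamini-Hochberg adjustment over all of them and a threshold of 0.05. All 64 members passed that filter, and their mean signal lay between the 41.8 and 94.0 percentile of the array. Of the tissue markers, the fat body genes Lsp2, Fbp1 and Fbp2 had signals of 3733 to 8972, and the larval glue genes Sgs3, Sgs4, Sgs5 and Sgs7 were at 0.847 to 6.47, while a further glue gene, Sgs8, was at 52.5 to 53.4. In whole animals, fewer cells of a type and less RNA per cell cannot be told apart.

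No mitochondrial ribosomal protein gene passed the test in either direction. At adjusted p from limma, 0 of 64 were higher in the knockdown and 0 lower, where 1.38% of all tested probe sets were called higher and 0.103% lower. The smallest adjusted p among the members was 0.289, for mRpL47. At unadjusted p the counts were 0 higher and 2 lower, against 7.53% and 5.51% of all tested probe sets. By the methods' t-test, rerun with pooled variance on log2 signals of the same filtered probe sets, they were 0 and 1 before adjustment and 0 and 0 after it. The study instead kept genes called present or marginal in both replicates and used other software, so the rerun does not repeat its test in full. The log2 fold changes ranged from -0.89 to 0.22, with a median of -0.21 over the members and -0.04 over all tested probe sets. Of the 64 genes, 50 had a log2 fold change under 0 (78.1%, against 53.9% of all tested probe sets), and 58 differed by less than 1.5-fold between groups. The latter share was not taken over all tested probe sets. Their quartiles of log2 fold change, -0.32 and 0.25, also lay within 1.5-fold.

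The precision sets how far this reaches. The limma standard errors of the members ran from 0.22 to 0.51 on the log2 scale, and their 95% intervals had a median half-width of 0.65. The interval lay below a log2 fold change of 1, a 2-fold rise, in 64 of 64 genes (the highest upper end was 1.00, in mRpS18B), and above -1, a 2-fold fall, in 43. With 2 arrays in each group, 0.333 is the smallest p of an exact two-sided permutation test.

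**Figure D1:**
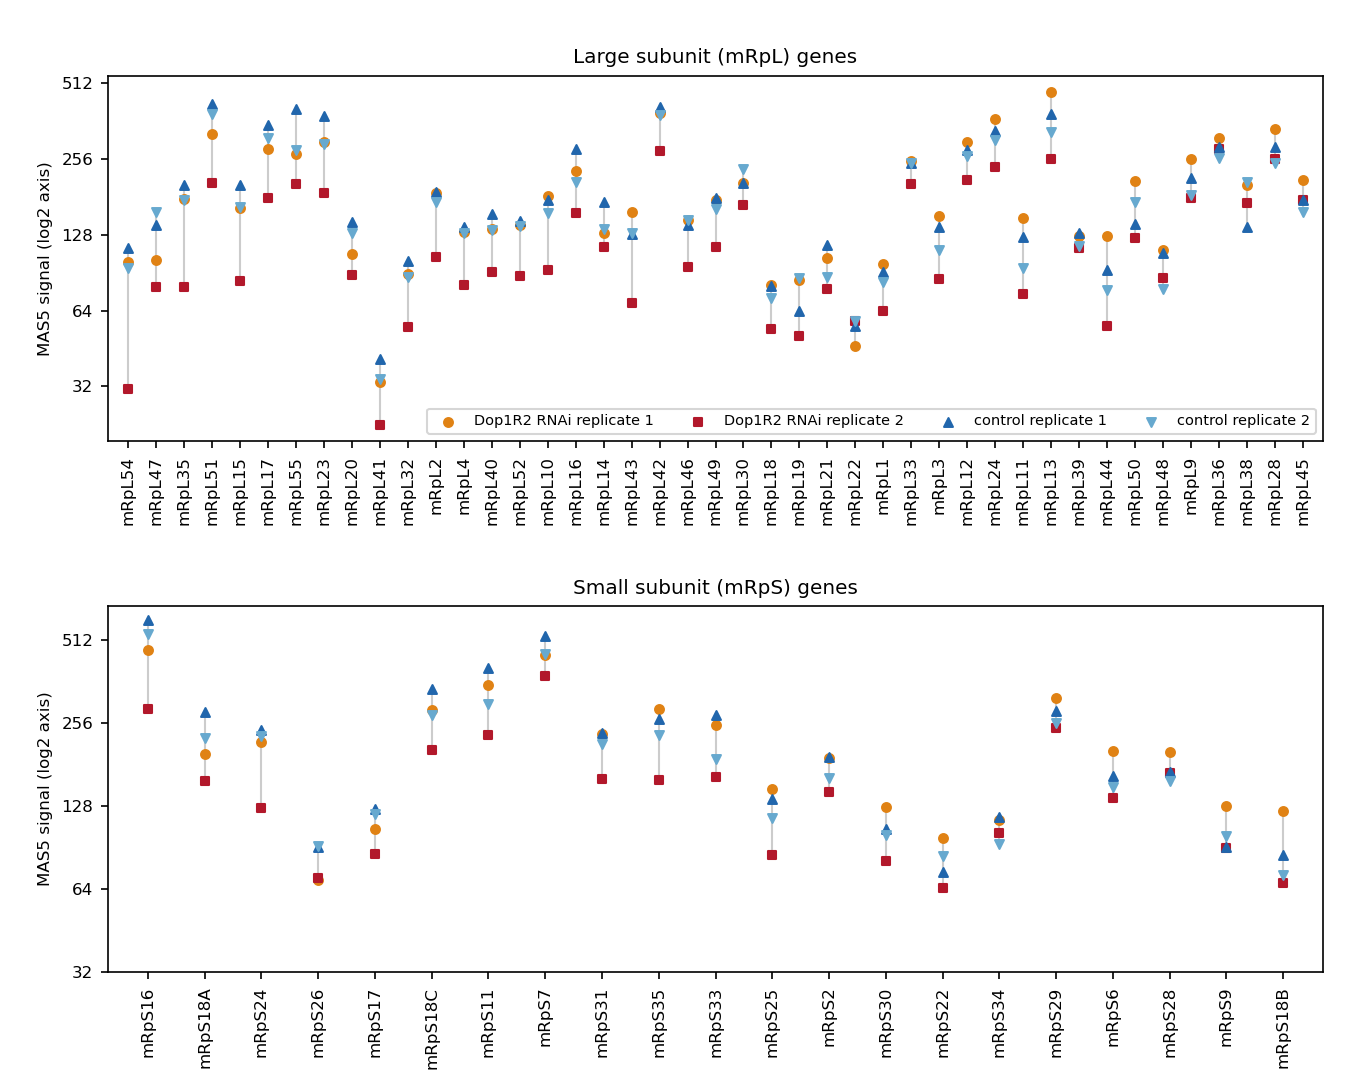
MAS5 signal (log2 axis) of each mitochondrial ribosomal protein gene on the 4 arrays, 1 point per array, with large subunit genes above and small subunit genes below, ordered by log2 fold change. Dop1R2 RNAi replicate 2 (squares) was the lowest of the 4 arrays for 55 of 64 genes.

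The 2 Dop1R2 RNAi arrays differed across the members. Dop1R2 RNAi replicate 2 was the lowest of the 4 arrays for 55 of 64 genes (85.9%, against 28.8% of all tested probe sets) and the highest for 0. Replicate 1 of the knockdown had the higher signal of the pair for 62 of 64 genes (96.9%, against 45.1%), and only mRpL22 and mRpS26 went the other way. Over the members the median log2 difference between the 2 Dop1R2 RNAi arrays was 0.58, and it was 0.16 between the 2 control arrays, where control replicate 1 was the higher for 53 of 64 genes (82.8%, against 44.5%). Over all tested probe sets these medians were -0.05 and -0.06. In 56 of 64 genes the gap between the Dop1R2 RNAi arrays was larger than the difference between the group means. A gap between 2 single arrays varies more than a difference of means, so the count is not by itself a result about the members. The share over all tested probe sets was not taken.

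**Figure D2:**
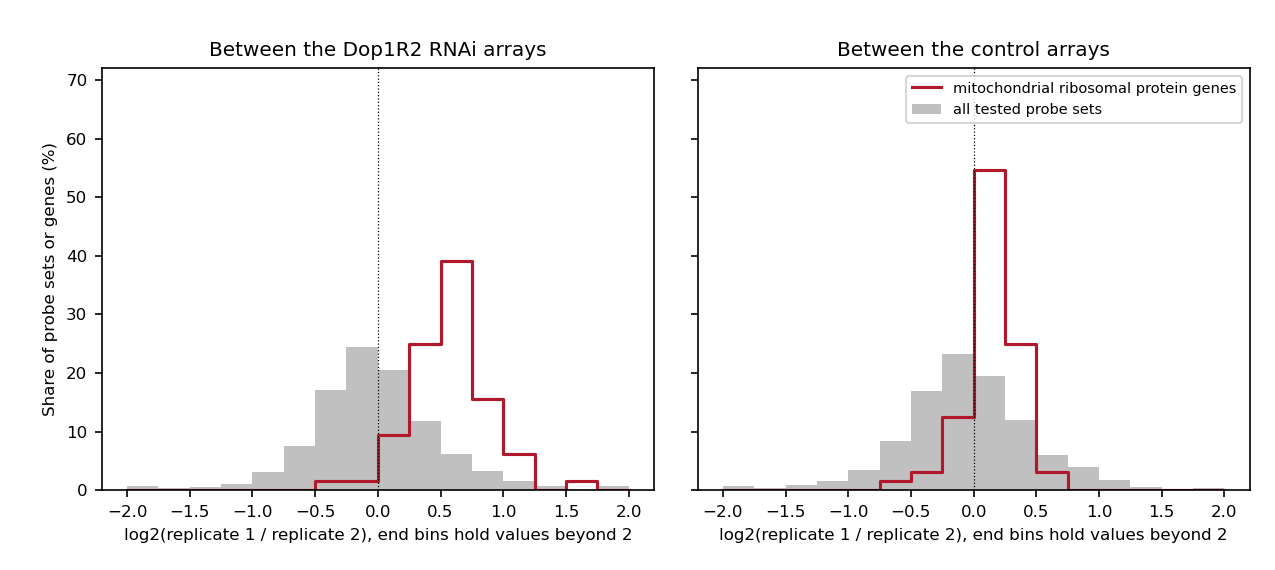
Distribution of log2(replicate 1 / replicate 2) within the Dop1R2 RNAi group (left) and the control group (right), as the share of all tested probe sets (grey bars) and of the 64 members (red line). Most members lie to the right of 0 in both groups, with a median of 0.58 between the Dop1R2 RNAi arrays and 0.16 between the control arrays.

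Set against the mean of the controls, the 2 knockdown arrays gave different pictures. Dop1R2 RNAi replicate 1 had a median log2 difference of 0.05 from that mean and lay below it for 26 of 64 genes, whereas Dop1R2 RNAi replicate 2 had a median of -0.52 and lay below it for 59. Replicate 1 was above both controls for 26 genes, between them for 23 and below both for 15. Replicate 2 was above both for 1 gene, between them for 7 and below both for 56. The shares of these positions over all tested probe sets were not taken. Of the 8749 tested probe sets, replicate 1 lay below the control mean for 4573 and replicate 2 for 4541. Over all tested probe sets the median differences from the control mean were -0.02 and -0.03, and over 3326 other probe sets within the same range of signal (the 10th to 90th percentile of the members) they were -0.02 and -0.04.

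The log2 fold changes depended on which Dop1R2 RNAi array was kept. With Dop1R2 RNAi replicate 1 left out, the median of the members was -0.52, against -0.03 over all tested probe sets. The lowest were mRpL54 (-1.72), mRpL35 (-1.24), mRpL15 (-1.13) and mRpS16 (-0.99). A test on such a fit assumes that the lone Dop1R2 RNAi array varies like the controls. With Dop1R2 RNAi replicate 2 left out, the median was 0.05, against -0.02 over all tested probe sets, and 38 of 64 genes had a log2 fold change above 0.

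In each of the 2 subunits the same array stood lowest. The log2 fold changes of the 43 large subunit genes had a median of -0.26 (range -0.89 to 0.21), with 36 of them under 0. The 21 small subunit genes had a median of -0.17 (range -0.64 to 0.22), with 14 under 0. Dop1R2 RNAi replicate 2 was lowest for 37 of the large and 18 of the small subunit genes. The difference between the subunits was not tested.

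Among large subunit genes, mRpL47, the counterpart of bacterial protein L29 beside the exit of the peptide tunnel, had the smallest p. Its signal was 102 and 79.5 in the knockdown and 140 and 157 in the controls. Both Dop1R2 RNAi arrays lay below both controls, and the means were 90.6 ± 15.6 and 149 ± 11.8 (SD, n = 2 each). The log2 fold change was -0.72 (with a standard error of 0.24, adjusted p = 0.289 from limma), with -0.90 when Dop1R2 RNAi replicate 1 was left out and -0.55 when replicate 2 was. It did not pass in either fit (smaller adjusted p = 0.155).

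The gene mRpL51, for a large subunit protein with no bacterial counterpart, had signals of 321 and 206 in the knockdown and 423 and 388 in the controls. The groups did not overlap (log2 fold change -0.65 with a standard error of 0.27, adjusted p = 0.376 from limma). With mRpL47 it was the other of the 2 members under the threshold at unadjusted p.

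The lowest log2 fold change was that of mRpL54, another protein of the large subunit. Its signal was 100.2 and 31.3 in the knockdown and 113 and 94.9 in the controls. The first of these values lay between the controls and the second was the lowest by far, a 3.20-fold gap within the group. The log2 fold change was -0.89 (with a standard error of 0.51, adjusted p = 0.498 from limma), and -0.05 without Dop1R2 RNAi replicate 2.

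A similar gap was seen for mRpL35, a small protein bound to the large ribosomal RNA, with 178 and 79.7 in the knockdown and 201 and 176 in the controls (log2 fold change -0.66, adjusted p = 0.499 from limma). The gene mRpL15, for a protein of the conserved core of the subunit, had 164 and 84.0 against 203 and 166 (-0.64, adjusted p = 0.477). For mRpL17, the protein of which lies near the tunnel exit in bacteria, the values were 280 and 179 against 348 and 311 (-0.55, adjusted p = 0.446). In these 3 genes Dop1R2 RNAi replicate 2 was the lowest array, and replicate 1 lay close to the lower control in mRpL35 and mRpL15 and further below it in mRpL17.

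The gene mRpL55, for a mitochondrion-specific protein, had a wide gap between controls. Its signal was 267 and 204 in the knockdown and 405 and 278 in the controls, with control replicate 1 1.46-fold above control replicate 2 (log2 fold change -0.52, adjusted p = 0.465 from limma).

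At the other end of the range, 7 large subunit genes had a log2 fold change above 0. The gene mRpL45, whose mammalian counterpart anchors the ribosome to the inner membrane at the tunnel exit, had 211 and 176 in the knockdown and 176 and 158 in the controls. It was the 1 member whose Dop1R2 RNAi arrays both lay above both controls, by a margin of 176.4 to 176.2 at the closest (log2 fold change 0.21 with a standard error of 0.23, adjusted p = 0.733 from limma). The values of mRpL28, which is conserved from bacteria, were 338 and 257 against 286 and 247 (0.15, adjusted p = 0.839), and those of mRpL36, the smallest conserved protein of the bacterial subunit, 311 and 282 against 287 and 259 (0.12, adjusted p = 0.861).

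The control arrays of mRpL38, a mitochondrion-specific protein, were 137 and 208 and enclosed both Dop1R2 RNAi values of 201 and 172 (log2 fold change 0.14, adjusted p = 0.868 from limma). For mRpL9, which reaches out from the bacterial large subunit, the values were 256 and 178 against 216 and 184 (0.10, adjusted p = 0.904). In mRpL9, mRpL28 and mRpL36 Dop1R2 RNAi replicate 1 was the highest array, as in 26 of 64 members.

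The 5 members with the highest signals, mRpS16, mRpS7, mRpL42, mRpL51 and mRpL13, all had Dop1R2 RNAi replicate 2 lowest. For mRpL13 the values were 472 and 257 in the knockdown and 387 and 329 in the controls, so that the group means nearly coincided (log2 fold change -0.04 with a standard error of 0.32, adjusted p = 0.978 from limma) while the Dop1R2 RNAi arrays were 1.84-fold apart. For mRpL42, a mitochondrion-specific protein, they were 391 and 276 against 412 and 383 (-0.28, adjusted p = 0.670).

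**Figure D3:**
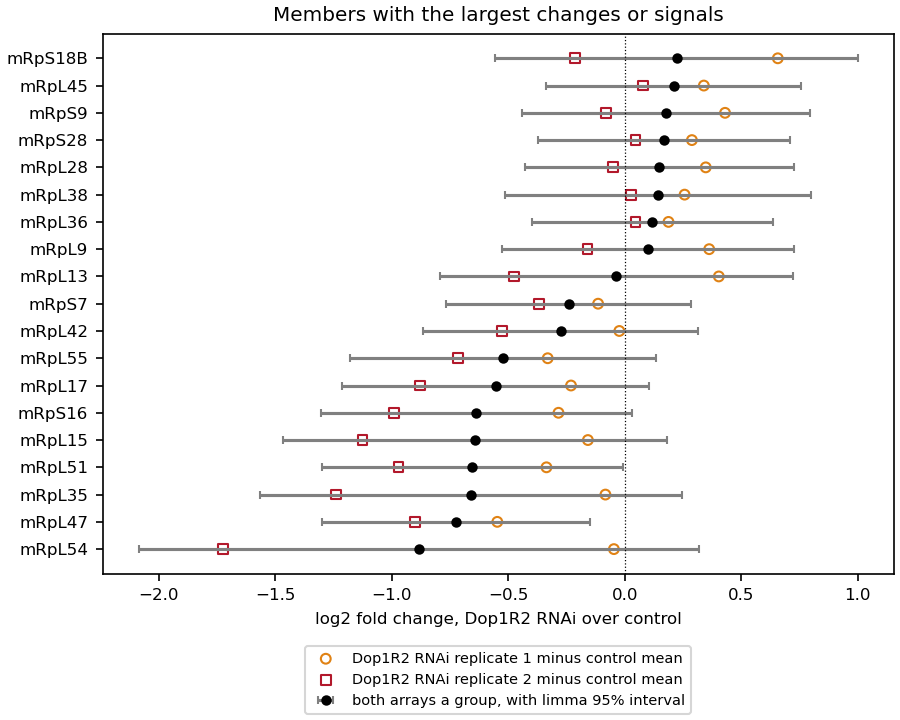
Log2 fold change of Dop1R2 RNAi over control for the 19 members with the largest changes or signals (black points, with limma's 95% interval), and of each Dop1R2 RNAi array against the control mean (open circles, replicate 1; open squares, replicate 2). Replicate 2 lies to the left of replicate 1 in every gene shown, and the interval excludes 0 for mRpL47 and mRpL51 alone, without adjustment for the number of tests.

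Among small subunit genes, mRpS16, for a conserved protein of the body of the subunit, had the lowest log2 fold change. Its signal was 468 and 287 in the knockdown and 606 and 537 in the controls, with no overlap (log2 fold change -0.64 with a standard error of 0.28, adjusted p = 0.393 from limma). The gene mRpS7, for a protein of the head that contacts the exiting transfer RNA in bacteria, had 452 and 380 against 527 and 455. Its Dop1R2 RNAi arrays were also both below the controls, with 452.3 against 455.1 at the closest (log2 fold change -0.24, adjusted p = 0.676).

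The 3 fly genes related to bacterial S18 gave log2 fold changes of different sign. The values were -0.52 for mRpS18A, -0.33 for mRpS18C and 0.22 for mRpS18B (adjusted p = 0.429, 0.616 and 0.815 from limma). The signals of mRpS18A were 197 and 157 in the knockdown and 281 and 226 in the controls, without overlap. Those of mRpS18B were 123 and 67.4 against 84.9 and 71.9, with the Dop1R2 RNAi arrays on either side of both controls. In mammalian structures the proteins named for mRpS18A and mRpS30 sit in the large subunit, so the split by symbol is not exact.

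Replicates were closest in mRpS26, a mitochondrion-specific protein, with 68.8 and 70.2 in the knockdown and 90.9 and 91.4 in the controls (log2 fold change -0.39 with a standard error of 0.22, adjusted p = 0.497 from limma). It was 1 of the 2 members in which Dop1R2 RNAi replicate 2 was not the lower of its pair, and the 1 member under the threshold in the methods' t-test before adjustment. It lies outside the rule for naming genes and was picked after its values were seen, as were the S18 genes A and C.

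The other small subunit genes of the rule had log2 fold changes above 0. For mRpS9, whose bacterial counterpart touches the transfer RNA in the decoding site, the values were 128 and 89.9 in the knockdown and 90.9 and 99.3 in the controls (log2 fold change 0.18, adjusted p = 0.816 from limma). For mRpS28 they were 199.9 and 169 against 170.1 and 158 (0.17, adjusted p = 0.793). The GTP-binding protein mRpS29, known in mammals as DAP3, had 315 and 246 against 282 and 257 (0.05, adjusted p = 0.948), and it too was named after its values were seen.

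Grouped by place in the ribosome, as known from bacteria and mammals, most genes had Dop1R2 RNAi replicate 2 lowest. These groups were drawn up after the values were seen and carry no test. The 3 genes of the stalk that recruits elongation factors (mRpL10, mRpL11 and mRpL12) had a log2 fold change of -0.10 in the median, with medians of 0.15 for Dop1R2 RNAi replicate 1 and -0.55 for replicate 2 against the control mean. The 7 genes of the RNA-bound core of the large subunit (mRpL2, mRpL3, mRpL4, mRpL13, mRpL15, mRpL16 and mRpL20) had a median of -0.37, and replicate 2 was lowest in all 7. The 6 genes around the peptide exit (mRpL17, mRpL22, mRpL23, mRpL24, mRpL45 and mRpL47) had a median of -0.32 and ranged from -0.72 to 0.21, with replicate 2 lowest in 4. In the small subunit the medians were -0.50 for 2 genes of the body, -0.29 for 3 of the platform and -0.09 for 3 of the head. Replicate 2 was lowest in all of these.

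The symbols also carry a bacterial numbering. The 26 large subunit genes numbered up to 36, which mostly carry the number of a bacterial protein, had a log2 fold change of -0.18 in the median, and the 17 with higher numbers, mostly mitochondrion-specific proteins, had -0.28. For the small subunit the 10 genes numbered up to 21 had a median of -0.26 and the 11 with higher numbers -0.17. The exceptions include mRpL47, named above, and mRpS24, the counterpart of bacterial S3. The differences were not tested.

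In total, groups did not overlap for 15 members. In 14 both Dop1R2 RNAi arrays were below both controls (21.9%, against 24.0% of all tested probe sets), a share near the background, and in 1 they were above (1.56%, against 21.1%). In the 2 genes with a second, dimmer probe set the sign was the same on both. For mRpL11 both probe sets were tested, with log2 fold changes of -0.05 for the brighter and -0.59 for the dimmer (adjusted p = 0.972 and 0.517 from limma). For mRpL12, whose mammalian counterpart also binds the mitochondrial RNA polymerase, the values were -0.10 and -0.52, the second on a probe set too dim to be tested.

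Both small subunit proteins that carry other names had the same array lowest. The signal of tko was 177 and 106 in the knockdown and 161 and 184 in the controls (log2 fold change -0.33, adjusted p = 0.673 from limma). That of bonsai was 250 and 146 against 194 and 199 (-0.04, adjusted p = 0.968). They belong to a list of 25 genes of mitochondrial translation and of the copying and transcription of mitochondrial DNA, of which 20 have a probe set and 14 were tested. At adjusted p, 0 of 14 were higher and 0 lower (0 and 0 at unadjusted p, and also by the methods' t-test). Its log2 fold changes had a median of -0.18, and Dop1R2 RNAi replicate 2 was the lowest array for 10 of the 14.

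Within that list, the elongation factor mEFTu1, which delivers transfer RNA to the ribosome, had 264 and 196 in the knockdown and 290 and 236 in the controls (log2 fold change -0.20, adjusted p = 0.772 from limma). TFAM, which packages mitochondrial DNA, had 212 and 171 against 230 and 204 (-0.19, adjusted p = 0.769). The lowest log2 fold change among the 14 tested genes was that of mTerf5, a regulator of mitochondrial transcription, with 69.2 and 55.9 against 84.5 and 88.9 (-0.48, adjusted p = 0.449). The mitochondrial RNA polymerase PolrMT had 95.2 and 97.3 against 114 and 102, so that here Dop1R2 RNAi replicate 1 was the lowest array. These genes except mTerf5 were picked as examples after their values were seen.

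Genes of the import machinery, which carries the subunits into the organelle, had Dop1R2 RNAi replicate 2 lowest in 6 of 14. Of 22 genes asked for, 14 were tested, 0 passed in either direction (1 higher and 1 lower without adjustment) and the median log2 fold change was -0.23. The mitochondrial chaperone Hsc70-5, of the Hsp70 family, had 491 and 423 in the knockdown and 274 and 225 in the controls (log2 fold change 0.87 with a standard error of 0.23, adjusted p = 0.185 from limma). The intermembrane space chaperone Tim13 had 38.6 and 52.5 against 115 and 64.4 (-0.93, adjusted p = 0.334).

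The respiratory chain and ATP synthase, some of whose core subunits the mitochondrial ribosome makes, also had Dop1R2 RNAi replicate 2 lowest in most genes. Of 68 tested nuclear genes, 0 were higher and 1 was lower at adjusted p, where 0.103% of all tested probe sets were lower. Without adjustment 0 were higher and 6 lower, against 7.53% and 5.51% of all tested probe sets. The median log2 fold change was -0.30, with 63 genes under 0 (92.6%), and Dop1R2 RNAi replicate 2 was lowest for 54 (79.4%). The gene that passed, ND-24L, a paralogue of a complex I subunit, fell by 1.48 on the log2 scale, from 119 and 119 to 45.5 and 40.1 (adjusted p = 0.0355 from limma). It did not pass without control replicate 1 (0.217) or 2 (0.141). The next lowest was COX7AL, a paralogue of a complex IV subunit, at -0.90 (adjusted p = 0.297 from limma). The list was drawn by symbol and so includes such paralogues. Dop1R2 RNAi replicate 1 was the lowest array for 10 of the 68, among them COX7AL, COX4L, COX5BL, SdhBL, SdhCL and UQCR-14L. Other paralogues, ND-24L, ND-20L, ND-B14.5AL and SdhAL, had replicate 2 lowest.

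Cytosolic ribosomal proteins, which make up the other ribosome of the cell, had another order of arrays. Of 30 tested genes 0 passed in either direction (0 higher and 1 lower without adjustment), and the median log2 fold change was -0.01. Dop1R2 RNAi replicate 2 was the lowest array for 1 of them and the highest for 12, and replicate 1 exceeded it in 3 of 30, against 62 of 64 for the mitochondrial ribosome. The lowest values were those of RpL10Aa (-0.79, adjusted p = 0.386 from limma) and RpL37A (-0.59, adjusted p = 0.180). The signal of RpL10Aa was 64.6 and 78.4 in the knockdown and 168 and 89.8 in the controls, far below most genes of the list. These counts describe 2 arrays and were not tested against each other.

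**Figure D4:**
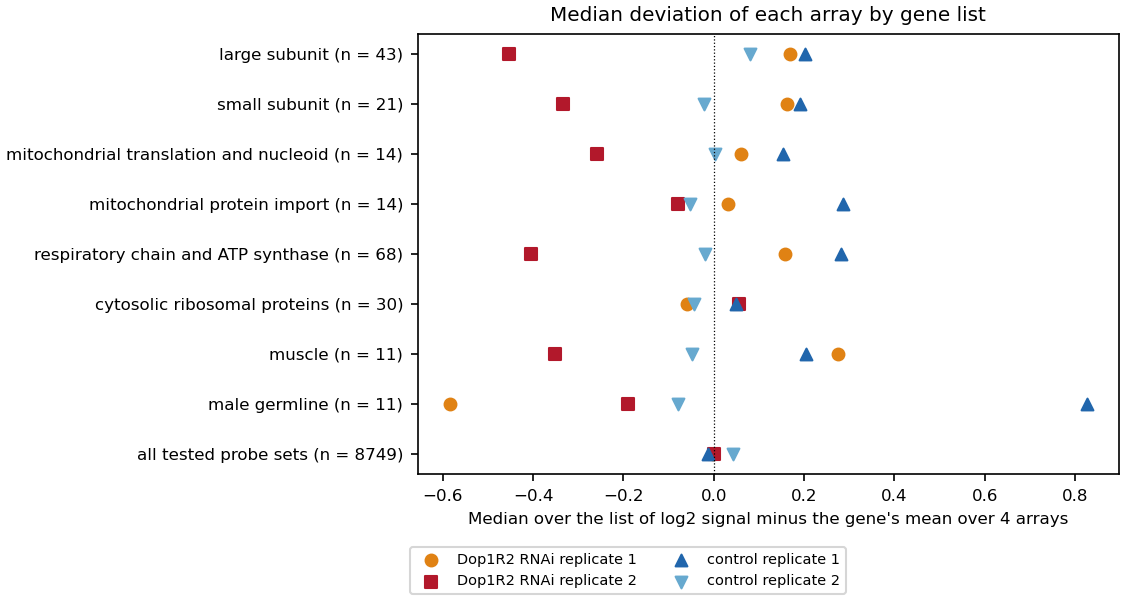
Median over each gene list of the log2 signal minus the gene's own mean over the 4 arrays, 1 point per array. For both subunits of the mitochondrial ribosome, the respiratory chain and muscle markers, Dop1R2 RNAi replicate 2 is the lowest point (-0.45, -0.33, -0.40 and -0.35). It is also the lowest for the mitochondrial translation list (-0.26) and for protein import (-0.08, against -0.05 for control replicate 2). For cytosolic ribosomal proteins the 4 arrays lie between -0.06 and 0.05.

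Markers of muscle, stage and the male germline also differed between the same arrays. The 3 tested fat body genes had a median log2 difference of 0.03 between the Dop1R2 RNAi arrays, and replicate 2 was lowest for 0. Both tested gut genes were lowest in control replicate 2. The gut gene epsilonTry had 41.9 and 54.1 in the knockdown against 26.0 and 9.78 (log2 fold change 1.58). The tested neuron gene, nSyb, had a log2 fold change of 0.03. Of these fat body, gut and neuron genes 0 passed at adjusted p (1 higher without adjustment). All 11 tested muscle genes had a lower signal in Dop1R2 RNAi replicate 2 than in replicate 1, and replicate 2 was the lowest array for 9. Their signals summed to 18044 and 12019 in the knockdown and to 17984 and 15146 in the controls, none was at 0, and 0 of 11 passed in either direction (0 also at unadjusted p). The myosin light chain gene Mlc1 was at 1962 and 1024 in the knockdown and at 2099 and 1505 in the controls. The part of muscle in the values of the members was not tested.

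The pupal cuticle genes Edg91 and Pcp rose in Dop1R2 RNAi pupae (log2 fold change 2.07 and 1.87, adjusted p = 0.0226 and 0.0407 from limma). Of the 9 stage genes 5 were tested and these 2 passed, but neither did without control replicate 1 (0.195 and 0.291) or 2 (0.141 and 0.186). Both calls were also lost with dim probe sets kept in (0.0532 and 0.0740), without a trend (0.0517 and 0.0888) and by the methods' t-test (0.520 and 0.537). Edg91 had 178 and 290 in the knockdown and 56.5 and 51.7 in the controls, so here Dop1R2 RNAi replicate 2 was the highest array. Pcp had 238 and 418 against 89.9 and 83.0, and Edg78E, which did not pass (adjusted p = 0.0670), had 117 and 216 against 50.8 and 31.7. Whether the stage of the pupae bears on the members was not tested.

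Male germline genes followed yet another order. All 11 tested genes were highest in control replicate 1 and lowest in Dop1R2 RNAi replicate 1, and 0 passed at adjusted p (0 higher and 3 lower without adjustment). Their signals summed to 5559 and 7217 in the knockdown and to 16043 and 7995 in the controls, and none was at 0. Their part in the results was not tested.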

How the data were processed

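RNA of 2 Dop1R2 RNAi and 2 control pools was measured on Affymetrix DrosGenome1 arrays. The deposited values are MAS5 signals (intensity, linear scale, with the software version not stated), 1 per probe set and array, which the authors scaled to a common level. The table holds 14010 rows, of which 44 array controls were left out. Gene names came from the platform annotation (12442 probe sets with 1 name, 327 with several, 1197 with none), and lists were matched by current symbol or synonym through the reference gene table (Release 6 plus ISO1 MT).

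Log2 signals, with nothing added, were fitted with limma 3.58.1 in R 4.3.3 (eBayes with a trend, 2 residual and 4.95 prior degrees of freedom) over the 8749 probe sets (62.6%) that reached the 40th percentile of an array in 2 or more of the 4. P was adjusted over all of these. Tables and plots used Python 3.11.15, numpy 2.4.6, pandas 2.3.3 and matplotlib 3.10.9. The fit was tested on simulated data. SD is the spread of the 2 arrays in each group, and the small number of arrays limits precision.

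The members and lists were chosen with earlier results of these data known. Genes named were members past the threshold, the 8 with the largest rise and the 8 with the largest fall, the 5 brightest, tko and bonsai, and up to 2 per comparison list, and others are said to be outside this rule or serve as examples. The fit was repeated unfiltered, with the filter at percentile 60, with signals floored at percentile 20, after adding 32, after quantile normalization or median centring, without the trend, and with the methods' t-test, the replicate number as a block, averaged probe sets or each array left out.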

Additional observations from a re-analysis of the deposited data

How the results depend on the processing

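The members gave 0 calls in either direction under every alternative that kept all 4 arrays. The 1 run with calls of members, all lower, left out Dop1R2 RNAi replicate 1. The lone knockdown array in that run gives no spread of its own. With 1 array left out at a time, the median log2 fold change of the members ranged from -0.52 (without Dop1R2 RNAi replicate 1) to 0.048 (without Dop1R2 RNAi replicate 2). With 2 arrays in a group, leaving 1 out shifts each gene by an amount fixed by the gap between them. These shifts therefore restate that gap. For the large subunit that range was -0.55 to 0.039 and for the small subunit -0.38 to 0.13. Under the other alternatives the median of the members was -0.24 (probe sets of a gene averaged) to -0.18 (32 added to each signal).

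Over all probe sets, leaving out 1 array gave 27 to 357 higher and 0 to 295 lower, against 121 and 9. With dim probe sets kept in, the counts were 75 higher and 3 lower, and after adjustment the methods' t-test gave 0 and 0 (467 and 323 before it). That rerun used another choice of probe sets than the study, so these are not the counts the study reported. The 1 lower respiratory chain gene (ND-24L) became 0 without the filter (adjusted p = 0.0858), without a trend (0.0579), with the t-test (0.464) and with the replicate block (0.0567), and leaving out 1 array gave 0 to 11. For cytosolic ribosomal proteins leaving out 1 array gave 0 to 1 lower. The cause of these shifts was not tested.

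Equal replicate numbers are not stated to mark a shared batch. The deviations of same-numbered arrays from their group means correlated at 0.151 over all tested probe sets and 0.139 over the members. A correlation across genes leaves out any shift that the members share. Among the members replicate 1 was the higher for 62 of 64 genes in the knockdown and 53 of 64 in the controls. Over all tested probe sets these shares were 45.1% and 44.5%. A shared effect of the replicate number was not tested. With the replicate block 131 probe sets were higher and 10 lower, and 0 members passed. At unadjusted p 8 members were lower, against 2 without the block, and the share over all tested probe sets was not taken. Over the 223 tested members and list genes the block ended the calls of ND-24L and Pcp (adjusted p = 0.0508 from limma) and changed no other.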
